A study of Mus musculus with 9 samples.

Results

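Type I interferon-stimulated genes were examined in spleen cells of lupus-prone mice: a list of 37 named genes, all of them found among the 21965 genes of the deposited count table. The study compared 3 groups of 3 samples, all from mice 16 weeks old. BWF1 females are the offspring of an NZB and NZW cross, and the series title calls them prone to lupus. BWF1 males come from the same cross, and BALB/c females are of another inbred strain; the title calls neither prone. No transgene, deletion or treatment is named for any group. The labels disagree on the cells, since the title and design name splenocytes and those of the single samples give macrophages gated on CD11b and F4/80.

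Type I interferons are antiviral cytokines that bind a receptor present on most cells. The receptor's kinases activate a complex that holds STAT2 and IRF9, binds an interferon-stimulated response element in promoters and switches on a shared set of antiviral genes. In people with lupus a raised level of these genes in blood is a widely described feature, and in BWF1 mice type I interferon given from outside is known to hasten the disease.

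The response element was looked for in RefSeq promoter windows on GRCm38.p6, each spanning 250 bases before to 50 after a gene's start. Of the 37 members, 28 had an entry; Dhx58, Oas2, Usp18, Mx1, Zbp1, Parp14, Rtp4, Ifi27l2a and Siglec1 are named only. The letters GAAA, any 2 bases and GAAA again, on either strand, stood in the windows of 15 of these 28 genes (53.6%), against 1079 of all 27025 genes with a window (3.99%). The longer form AGTTTC, any 2 bases and TTTC, whose matches overlap those of the shorter, stood in 8 of the 28 (28.6%) and in 82 of all genes (0.303%). Only some of these matches are printed, 1 per gene and each wholly before the start. They are shown because the list rests on a response that works through such elements. Matches in Ddx58, Ifih1, Eif2ak2, Oas1a, Oas1g and Slfn5 are not printed. Those of Ddx58, Ifih1 and Eif2ak2 lay at or after the start. Capitals mark the match to the shorter form or its reverse complement, and each stretch is written on the gene's own strand.
Stat2 (chr10:128270266-128270295): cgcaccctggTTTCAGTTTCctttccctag
Ifit1 (chr19:34640775-34640804): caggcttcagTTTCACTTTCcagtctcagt
Ifit3 (chr19:34583363-34583392): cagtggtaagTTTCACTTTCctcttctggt
Ifit3b (chr19:34607759-34607788): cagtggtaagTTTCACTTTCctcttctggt
Oas3 (chr5:120777715-120777744): gcagggaggaGAAAACGAAAgtgaagggag
Isg15 (chr4:156200877-156200906): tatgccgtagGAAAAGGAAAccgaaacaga
Rsad2 (chr12:26456553-26456582): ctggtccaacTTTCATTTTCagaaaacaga
Bst2 (chr8:71537583-71537612): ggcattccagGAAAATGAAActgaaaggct
Trim30a (chr7:104465210-104465239): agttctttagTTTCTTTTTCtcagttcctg

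Ifit3 and Ifit3b, copies on the same chromosome, carry the same letters over the whole stretch printed. The windows of Irf7, Irf9, Ifit2, Oasl1, Oasl2, Herc6, Isg20, Cmpk2, Ifi44, Xaf1, Ifi35, Lgals3bp and Phf11d held no match to the letters. A match is a description of sequence and not a measured binding site.

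Depth and cell content set what could be seen. Gene counts ran from 458608 to 4305003 per library, of which Lars2 alone held 42.3% to 76.6%, and between 1.29% and 2.82% of alignments fell in counted genes. BWF1 male 1 stood apart with the highest Lars2 share and a scaling (TMM) factor of 0.530, and BWF1 male 3 with the greatest depth. Itgam, which encodes CD11b, had 0, 1 and 0 counts for BWF1 females, 3, 2 and 32 for the males, and 7, 10 and 5 for BALB/c. Adgre1, which encodes the other protein of the labelled gate, was counted in every library. Its counts were 8, 9 and 6 for BWF1 females, 7, 11 and 100 for the males, and 12, 8 and 8 for BALB/c. All 7 B cell markers were counted in every library, with a summed level between 1864 and 2548 CPM, against 179 to 602 CPM for the 10 macrophage markers; CPM is counts scaled to a fixed total by the TMM-adjusted library size and is not corrected for gene length. The B cell sum, above the macrophage sum in every library, thus went against the label of sorted macrophages, although Adgre1 was counted throughout. The libraries are called spleen libraries here. The macrophage sum was 203 ± 20.6 CPM for BWF1 females, 529 ± 124 for the males and 321 ± 26.7 for BALB/c (SD, n = 3 each).

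The list as a whole did not stand out in BWF1 females. It received 301, 386 and 272 counts for BWF1 females 1 to 3, 341, 559 and 2644 for the males 1 to 3, and 833, 1057 and 633 for BALB/c 1 to 3. As a share of gene counts without Lars2 this was 0.149% ± 0.0130 for BWF1 females, 0.138% ± 0.0109 for the males and 0.152% ± 0.0110 for BALB/c (SD, n = 3 each). The lowest single library stood at 0.129% (95% Wilson interval 0.124% to 0.134%, BWF1 male 3) and the highest at 0.165% (0.155% to 0.175%, BALB/c female 2), and the 3 groups overlapped. The summed level was 664, 623 and 558 CPM for BWF1 females, 669, 573 and 551 CPM for the males, and 599, 695 and 627 CPM for BALB/c. The means, 615 ± 53.1, 598 ± 62.8 and 640 ± 49.2 CPM in that order of groups, differed by less than the SD within a group. No p-value is given for this sum, since the list was chosen with results known. In bulk libraries, fewer cells of a type and less RNA per cell cannot be told apart.

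**Figure D1:**
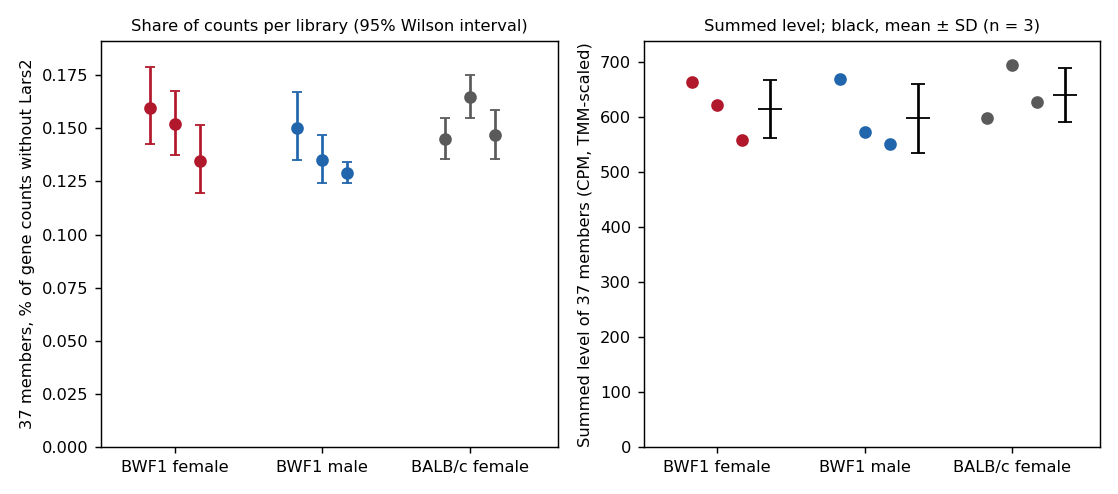
Members' share of gene counts without Lars2 (left, percent, with 95% Wilson intervals that cover counting error only) and their summed level (right, CPM) by library and group; black marks show the mean ± SD. The groups overlap in both measures, with means of 615, 598 and 640 CPM.

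No single library was the highest for most of the list either. The library with the highest CPM of a member was most often BWF1 male 1, for 8 of the 37 members, and least often BWF1 male 3, for 1. BWF1 females 1 to 3 were highest for 5, 5 and 3 members, BWF1 male 2 for 3, and BALB/c females 1 to 3 for 3, 6 and 3. This tally also depends on depth, since 19 members had too few counts to test and 1 count is a large step in a shallow library. The same tally over all genes is not given. Among the 18 members tested, the coefficient of variation within a group had a median of 34.7% for BWF1 females, 20.1% for the males and 20.3% for BALB/c, beside 23.9%, 19.1% and 16.8% for all genes tested. The median was highest in the BWF1 females, of which numbers 1 and 3 were the shallowest libraries by total counts, by counts without Lars2 and by scaled library size.

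Expressed per kilobase of exon, so that genes can be set beside each other, Ifi27l2a, Bst2 and Trim30a had the 3 highest means in every group. The small interferon-induced protein gene Ifi27l2a stood at 33.7 ± 12.9 CPM per kilobase for BWF1 females, 43.7 ± 6.17 for the males and 47.5 ± 10.5 for BALB/c. Bst2 followed with 30.9 ± 9.73, 34.9 ± 6.44 and 21.5 ± 9.40, and Trim30a with 11.6 ± 4.95, 13.5 ± 1.46 and 14.0 ± 1.57, in the same order of groups. The SDs of Ifi27l2a and Bst2 overlapped in BWF1 females and BWF1 males, so their order there is not firm. The third place is no firmer, since Trim30a overlapped Ifi35 in BWF1 females (11.1 ± 2.84), Lgals3bp in BWF1 males (11.9 ± 1.62) and Isg15 in BALB/c females (10.3 ± 4.16). Members widely used as interferon markers were spread along this scale. Isg15 stood at 4.21 ± 1.26 CPM per kilobase in BWF1 females and 6.96 ± 1.74 in BWF1 males, and Rsad2 at 9.51 ± 2.03 for BWF1 females, 3.22 ± 3.88 for the males and 7.81 ± 5.20 for BALB/c. Ifit1 had 0.682 ± 0.621 CPM per kilobase for BWF1 females, 1.47 ± 0.845 for the males and 1.02 ± 0.502 for BALB/c.

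**Figure D2:**
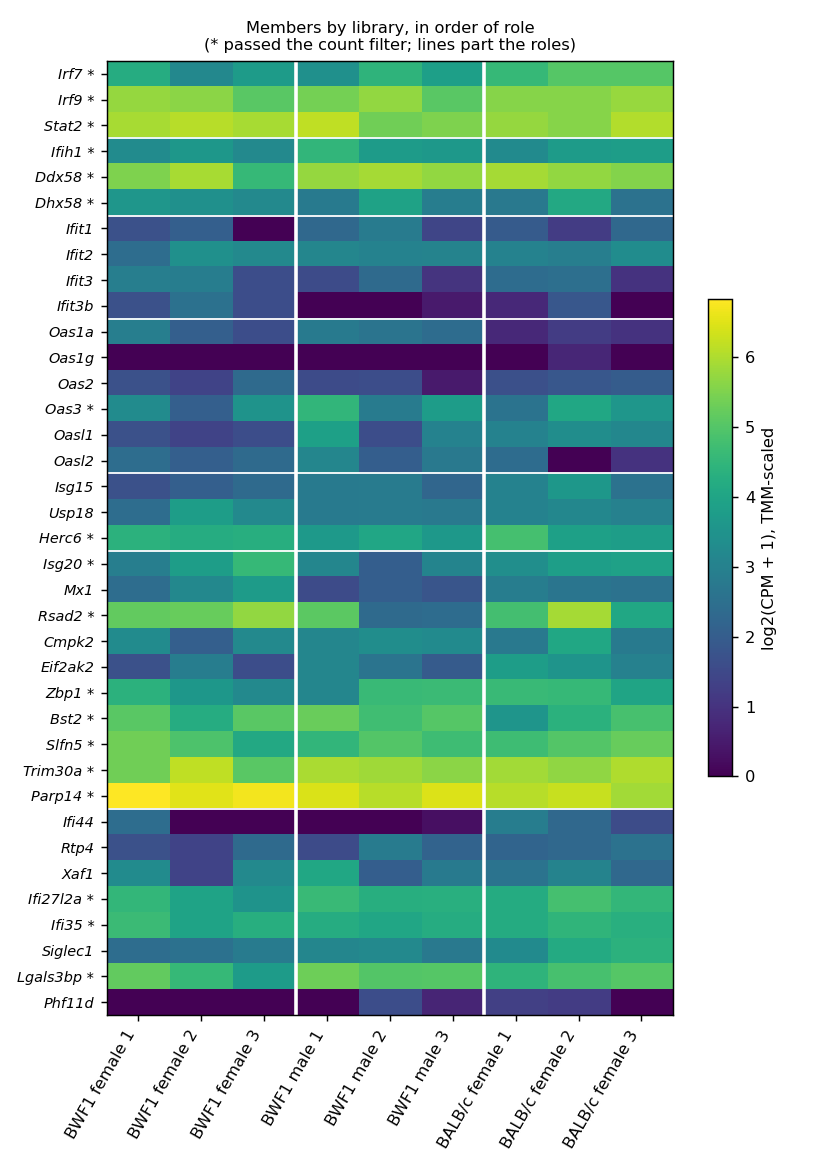
Level of the 37 members, as log2(CPM + 1), in the 9 libraries, ordered by role from transcription factors at the top. Rsad2 is dark in BWF1 males 2 and 3, Irf7 is brighter in the 3 BALB/c libraries, and the IFIT and most OAS genes are dark throughout.

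A total of 18 members passed the filter on low counts and were tested with edgeR's quasi-likelihood method beside all 7719 genes that passed; 19 did not pass. Between BWF1 females and BWF1 males, 0 of the 18 passed an adjusted p of 0.05, against 2.19% of all genes tested (0.959% higher and 1.23% lower). An unadjusted p under 0.05 was reached by 2 of them (Rsad2 and Isg20), against 16.4% of all genes; DESeq2 called 0 and limma-voom 1, which was Rsad2. For BWF1 females against BALB/c females 1 member was called, lower, where 2.03% of all genes were called lower, 1.79% higher and 3.82% in either direction; it was Irf7. An unadjusted p under 0.05 was reached by 2 members (Irf7 and Parp14), against 16.9% of all genes, and DESeq2 and limma-voom each called 0. Between BWF1 males and BALB/c females 0 were called, against 3.52% of all genes (1.67% higher and 1.85% lower), with 4 at an unadjusted p under 0.05 (Irf7, Rsad2, Isg20 and Bst2), against 16.3%; DESeq2 called 0 and limma-voom 2 (Irf7 and Rsad2). With no filter on low counts 1, 1 and 3 members were called in the same order of comparisons, where 1.99%, 2.8% and 3.34% of all genes were, and with trended dispersions 1, 1 and 2, where 2.54%, 3.77% and 6.27% were. The fit with no filter did not estimate the quasi-likelihood spread gene by gene, so a member's own spread did not enter it. The comparisons share libraries, so they are not independent of each other.

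The members spread to both sides of no change. The median log2 fold change over the 18 was -0.03 for BWF1 females over BWF1 males, -0.12 for BWF1 females over BALB/c females and -0.10 for BWF1 males over BALB/c females, where the median over all genes tested was 0.00 in each. For BWF1 females over BWF1 males, 9 members had a positive and 9 a negative value (all genes 50.1% and 49.9%); over BALB/c it was 7 and 11 for the females (49.8% and 50.2%) and 6 and 12 for the males (49.7% and 50.3%). The groups did not overlap for 3 higher members (Herc6, Rsad2 and Parp14) and 1 lower member (Ifih1) of 18, where 9.04% of all genes did so higher and 9.68% lower. For BWF1 females over BALB/c females 1 was higher without overlap (Parp14; all genes 10.3%) and 1 lower (Irf7; all genes 10.9%). For BWF1 males over BALB/c females 0 were higher (all genes 11.6%) and 2 lower (Irf7 and Isg20; all genes 11.9%).

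**Figure D3:**
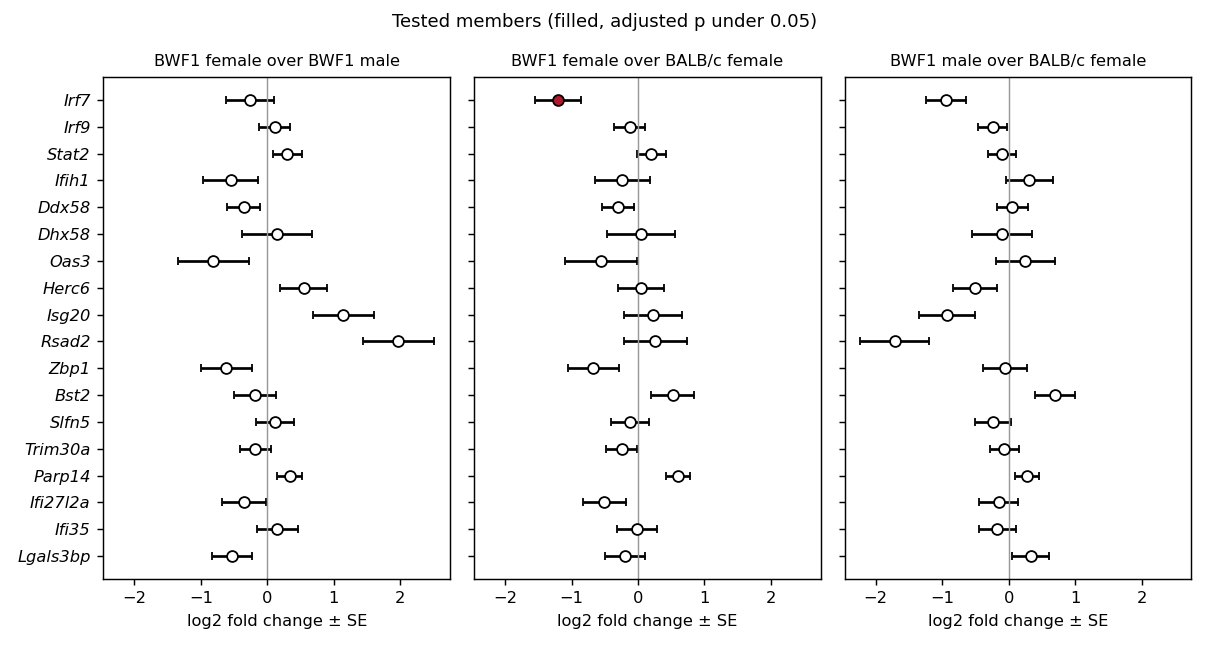
Log2 fold change with its standard error for the 18 tested members in BWF1 females over BWF1 males, BWF1 females over BALB/c females and BWF1 males over BALB/c females. Irf7 in the middle panel, at -1.21, is the only filled point (adjusted p under 0.05); Rsad2 has the largest change in the outer panels, 1.97 and -1.71.

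Irf7, the transcription factor that amplifies type I interferon production, was the one member called, at a lower level in the females of the cross than in BALB/c. Irf7 (ENSMUSG00000025498, mm10 chr7:141262706-141266481, minus strand) stood at 17.6, 8.07 and 12.3 CPM for BWF1 females, 9.81, 20.5 and 13.5 for the males, and 23.0, 31.5 and 31.7 for BALB/c. Every BALB/c library was above all 6 BWF1 libraries, which was true of 1 tested member of 18 and of 4.17% of all genes tested. The level averaged 12.7 ± 4.80 CPM in BWF1 females and 28.8 ± 4.98 CPM in BALB/c females (SD, n = 3 each), a log2 fold change of -1.21 (SE 0.344, adjusted p = 0.0463). In BWF1 males it averaged 14.6 ± 5.43 CPM, a log2 fold change of -0.95 (SE 0.304, adjusted p = 0.0861) against BALB/c females, which did not pass; 4 of 21 alternatives called it. Females over males of the cross gave -0.26 (SE 0.360).

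The Irf7 call was a narrow one, resting on 8, 5 and 6 counts in BWF1 females. It was kept in 9 of 21 alternatives, and its adjusted p ran from 0.0143 to 0.248 over them. The lowest came with no filter, a fit that did not estimate the spread gene by gene. DESeq2 gave 0.194 and limma-voom 0.1002. A tag in the file names, whose meaning is not given, is shared by all BALB/c libraries, BWF1 female 2 and BWF1 male 2; with it as a term the value was -1.11 (SE 0.438, adjusted p = 0.248). It was lost when BWF1 female 2 (adjusted p = 0.195), BWF1 female 3 (0.0866), BWF1 male 3 (0.0574), BALB/c female 1 (0.0564), 2 (0.156) or 3 (0.140) was left out. The log2 fold change stayed between -1.50 and -0.93. Phrf1 overlaps Irf7 on the opposite strand, so counting without strand could affect both genes. It had 77.2, 72.6 and 73.9 CPM in BWF1 females, 82.4, 62.5 and 72.5 in BWF1 males, and 43.1, 65.7 and 67.4 in BALB/c females. The part of this overlap in the Irf7 values was not tested. No 50-base stretch of an Irf7 transcript occurs in a transcript of another gene in GENCODE M21.

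Markers of metallophilic and marginal zone macrophages, which had few counts, also differed along with Irf7. The wider macrophage sum did not follow it, at 203 ± 20.6 CPM for BWF1 females, 529 ± 124 for the males and 321 ± 26.7 for BALB/c. The 3 metallophilic and marginal zone macrophage markers (Siglec1, itself a member, Marco and Cd209b) summed to 4.41 to 6.45 CPM for BWF1 females, 6.66 to 8.20 for the males and 17.2 to 28.7 for BALB/c; of them Cd209b had 0 counts in all 6 BWF1 libraries and 3, 0 and 1 counts in BALB/c females. The 8 plasmacytoid dendritic cell markers, a cell type rich in IRF7, summed to 246 to 322 CPM for BWF1 females, 314 to 393 for the males and 206 to 222 for BALB/c. That difference rested on Ly6d, which had 65.7 to 117 CPM for BWF1 females, 147 to 182 for the males and 35.2 to 41.4 for BALB/c. Without Ly6d, an alternative chosen after seeing the data, the other 7 markers summed to 181 to 224, 157 to 246 and 171 to 184 CPM in that order of groups, which overlapped. Siglech, a defining marker, had 8.82, 24.2 and 6.16 CPM for BWF1 females, 15.7, 25.6 and 14.4 for the males, and 20.1, 21.0 and 14.9 for BALB/c. Their part in the Irf7 values was not tested.

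The remaining transcription factors of the list differed less. Irf9, the DNA-binding partner of Stat2, had 52.9, 48.4 and 32.9 CPM for BWF1 females, 41.2, 51.3 and 33.1 for the males, and 46.7, 46.7 and 53.5 for BALB/c. Stat2, which carries the activation domain of the complex, had 59.5, 67.8 and 59.5 CPM for BWF1 females, 70.6, 40.0 and 44.6 for the males, and 52.5, 46.7 and 64.4 for BALB/c. The groups overlapped for both. For BWF1 females over BWF1 males the log2 fold change was 0.11 (SE 0.231) for Irf9 and 0.30 (SE 0.221) for Stat2; over BALB/c females it was -0.13 (SE 0.228) and 0.20 (SE 0.218). For BWF1 males over BALB/c females it was -0.24 (SE 0.220) for Irf9 and -0.10 (SE 0.214) for Stat2. Irf9 shares its strand and 1.32% of its 50-base stretches with the overlapping gene Rnf31.

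Rsad2 had the highest coefficient of variation of the 18 tested members in BWF1 males. It encodes viperin, an enzyme that makes a chain-terminating nucleotide against viral polymerases. Rsad2 (ENSMUSG00000020641, mm10 chr12:26442746-26456452, minus strand, with its promoter match printed above) had 16, 23 and 25 counts for BWF1 females. The males had 17, 4 and 21, and BALB/c had 37, 90 and 16. As levels these were 35.3, 37.1 and 51.3 CPM for BWF1 females, 33.3, 4.10 and 4.37 for the males, and 26.6, 59.1 and 15.9 for BALB/c. BWF1 males 2 and 3 were far below BWF1 male 1, and every BWF1 female lay above every BWF1 male. The means were 41.2 ± 8.78 CPM for BWF1 females, 13.9 ± 16.8 for the males and 33.9 ± 22.5 for BALB/c (SD, n = 3 each).

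Rsad2 stood just outside the threshold in BWF1 females over BWF1 males, a log2 fold change of 1.97 (SE 0.540, adjusted p = 0.0511), and in BWF1 males over BALB/c females, a log2 fold change of -1.71 (SE 0.519, adjusted p = 0.0663), where the groups overlapped. BWF1 females over BALB/c females gave a log2 fold change of 0.26 (SE 0.470, adjusted p = 0.830). Whether the females-over-males difference passed hung on the method: 9 of 21 alternatives called it, with adjusted p from 6.53e-08 to 0.518 and a log2 fold change between 1.32 and 3.24. The lowest adjusted p came with no filter, a fit that did not estimate the quasi-likelihood spread gene by gene. The wide spread of Rsad2 in BWF1 males thus did not enter that estimate. Limma-voom (0.000150) called it and DESeq2 (0.518) and robust dispersions (0.378) did not. Without BWF1 male 1, the male library at the level of the females, the log2 fold change was 3.24 (adjusted p = 4.23e-05), and without BALB/c female 2 it was 1.96 (0.0359). The males-over-BALB/c value was called in 7 of 21 alternatives: without BWF1 male 1 it was -2.998 (adjusted p = 1.67e-05), without BALB/c female 3 it was -1.99 (0.0431) and without BWF1 female 3 it was -1.67 (0.0498). With the file-name tag as a term the females-over-males value was 2.02 (adjusted p = 0.0314).

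A neighbour measured in the same libraries was not low with Rsad2 in BWF1 males 2 and 3; this pair was singled out after its values were seen. Cmpk2, a mitochondrial nucleotide kinase gene whose start lies 12752 bases from that of Rsad2, facing away, is induced by interferon in the same way. It had 4, 2 and 4 counts for BWF1 females, 4, 9 and 41 for the males, and 8, 24 and 6 for BALB/c, or 8.82, 3.23 and 8.21 CPM for BWF1 females, 7.85, 9.23 and 8.54 for the males, and 5.75, 15.8 and 5.95 for BALB/c. BWF1 males 2 and 3 thus lay within the range of the other libraries, and BALB/c female 2 was the highest library for both genes. Rsad2 made up 80.0%, 92.0% and 86.2% of the counts of the pair in BWF1 females 1 to 3 and 72.7% to 82.2% in BALB/c females. In BWF1 males it made up 81.0% in male 1, 30.8% in male 2 (exact 95% interval 9.09% to 61.4%) and 33.9% in male 3 (22.3% to 47.0%). No 50-base stretch of a transcript of either gene occurs in a transcript of another gene.

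Erythroid markers shared their extreme libraries with Rsad2. The 7 markers, all counted in all 9 libraries, summed to 668, 550 and 1618 CPM for BWF1 females, 753, 108 and 99.3 for the males, and 1027, 3017 and 1199 for BALB/c. BWF1 males 2 and 3 were the lowest libraries in both measures and BALB/c female 2 the highest. Between these ends the order differed: BWF1 female 2 ranked 3 of 9 for Rsad2 and 7 for the markers, and BALB/c female 3 ranked 7 for Rsad2 and 3 for the markers. The part of erythroid cells in the Rsad2 values was not tested.

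**Figure D4:**
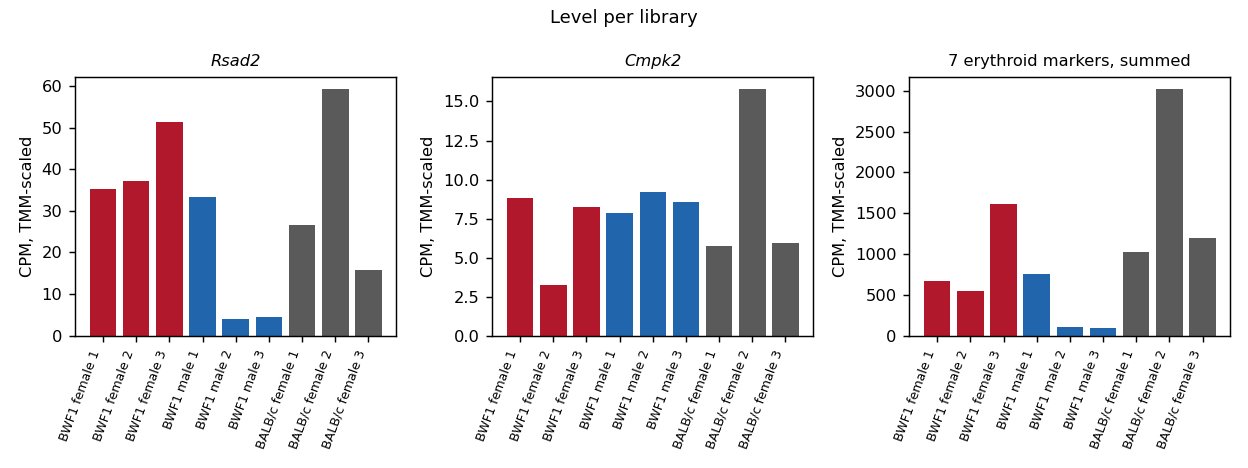
Level of Rsad2, of its neighbour Cmpk2 and of 7 erythroid markers summed (CPM) in each library. Rsad2 and the erythroid sum are lowest in BWF1 males 2 and 3, where Cmpk2 is at 9.23 and 8.54 CPM, within the range of the other libraries.

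Parp14 received the most counts of any member, 954 over the 9 libraries. It encodes an ADP-ribosyltransferase of the antiviral response (ENSMUSG00000034422, mm10 chr16:35832874-35871544, minus strand). Its levels were 112, 90.3 and 103 CPM for BWF1 females, 86.3, 67.7 and 87.7 for the males, and 67.6, 74.9 and 57.5 for BALB/c. All 3 BWF1 females were above all BWF1 males and all BALB/c females, while BWF1 males and BALB/c females overlapped. The log2 fold change was 0.61 (SE 0.182) for BWF1 females over BALB/c females (adjusted p = 0.0630), 0.33 (SE 0.182) over BWF1 males (adjusted p = 0.368) and 0.27 (SE 0.179) for BWF1 males over BALB/c females (adjusted p = 0.490), and 0 of the 3 passed. Leaving out BWF1 male 1 brought the first to an adjusted p of 0.0488, and no other alternative called it.

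Isg20, a 3'-to-5' exonuclease of viral RNA, had 6.62, 12.9 and 22.6 CPM for BWF1 females, 7.85, 3.08 and 7.50 for the males, and 9.34, 13.1 and 13.9 for BALB/c. BWF1 males were below all BALB/c libraries, and BWF1 females overlapped both groups. The log2 fold change was 1.15 (SE 0.460) for BWF1 females over BWF1 males (adjusted p = 0.198), 0.22 (SE 0.433) over BALB/c females and -0.92 (SE 0.419) for BWF1 males over BALB/c females (adjusted p = 0.264). Bst2, or tetherin, which holds budding virions to the cell surface and also marks plasmacytoid dendritic cells, had 33.1, 17.7 and 32.9 CPM for BWF1 females, 37.3, 25.6 and 31.6 for the males, and 10.8, 19.7 and 27.8 for BALB/c. The groups overlapped; the log2 fold change was 0.70 (SE 0.303) for BWF1 males over BALB/c females (adjusted p = 0.233), 0.52 (SE 0.324) for BWF1 females over BALB/c females (adjusted p = 0.440) and -0.18 (SE 0.318) over BWF1 males. The plasmacytoid marker sum, which includes Bst2, overlapped between the groups once Ly6d was left out (ranges above); the part of these cells in Bst2 was not tested.

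**Figure D5:**
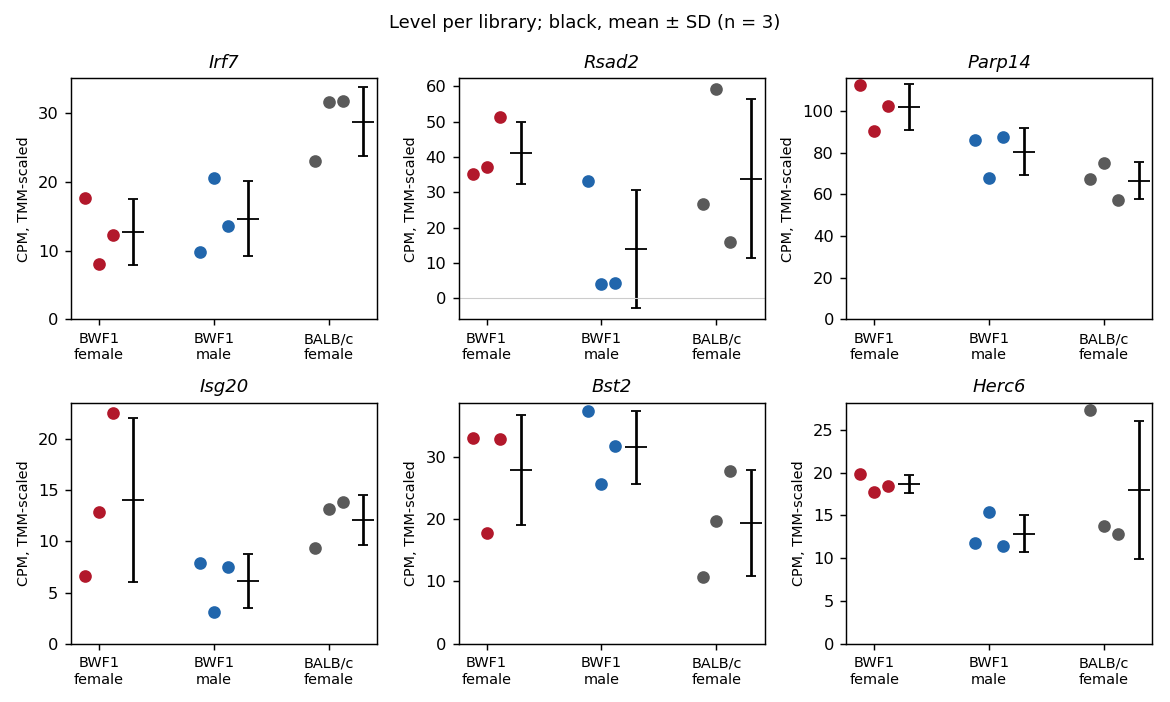
Level (CPM) in each library of Irf7, Rsad2, Parp14, Isg20, Bst2 and Herc6 by group, with the mean ± SD in black (n = 3). Irf7 is higher in all 3 BALB/c libraries, Parp14 in all 3 BWF1 females, and Rsad2 in BWF1 male 1 lies apart from BWF1 males 2 and 3.

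A further 3 effectors with enough counts to test showed overlapping groups. Zbp1, a sensor of Z-form nucleic acids, had 19.8, 11.3 and 8.21 CPM for BWF1 females, 7.85, 23.6 and 24.2 for the males, and 23.7, 23.0 and 14.9 for BALB/c. Slfn5, a schlafen family gene, had 39.7, 29.0 and 16.4 CPM for BWF1 females, 21.6, 30.8 and 25.2 for the males, and 25.2, 30.9 and 36.7 for BALB/c. Trim30a, a TRIM family gene, had 39.7, 71.0 and 32.9 CPM for BWF1 females, 60.8, 56.4 and 48.9 for the males, and 58.2, 50.6 and 63.4 for BALB/c. None passed in any comparison by edgeR: the log2 fold change for BWF1 females over BWF1 males was -0.62 (SE 0.386) for Zbp1, 0.12 (SE 0.289) for Slfn5 and -0.18 (SE 0.236) for Trim30a. Over BALB/c females it was -0.67 (SE 0.385), -0.12 (SE 0.284) and -0.24 (SE 0.234), and for BWF1 males over BALB/c females -0.06 (SE 0.332), -0.24 (SE 0.269) and -0.06 (SE 0.225). The lowest adjusted p of these 9 values was 0.390, for Zbp1 in BWF1 females over BALB/c females.

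The cytosolic RNA sensors were measured at low to moderate counts. Ddx58, which encodes RIG-I, had 44.1, 59.7 and 22.6 CPM for BWF1 females, 53.0, 58.4 and 51.6 for the males, and 58.9, 51.3 and 46.6 for BALB/c. Ifih1, which encodes MDA5, had 8.82, 11.3 and 8.21 CPM for BWF1 females, 21.6, 12.3 and 11.5 for the males, and 8.62, 12.5 and 12.9 for BALB/c, and all 3 BWF1 females were below all BWF1 males. Dhx58, which encodes the regulator LGP2, had 11.0, 9.68 and 8.21 CPM for BWF1 females, 5.88, 14.4 and 6.45 for the males, and 5.75, 16.4 and 4.96 for BALB/c, with groups that overlapped. The log2 fold change for BWF1 females over BWF1 males was -0.35 (SE 0.248) for Ddx58 (adjusted p = 0.516), -0.55 (SE 0.411) for Ifih1 (0.548) and 0.15 (SE 0.523) for Dhx58 (0.929). For BWF1 females over BALB/c females it was -0.30 (SE 0.246), -0.24 (SE 0.413) and 0.04 (SE 0.517), and for BWF1 males over BALB/c females 0.05 (SE 0.234), 0.31 (SE 0.355) and -0.10 (SE 0.455), of which 0 passed by edgeR, with 0 at an unadjusted p under 0.05 and 0 by DESeq2 or limma-voom.

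Oas3, which makes the second messenger that activates RNase L, and Herc6, the main ligase that joins ISG15 to proteins in mice, were the tested members of their arms. Oas3 had 8.82, 3.23 and 10.3 CPM for BWF1 females, 21.6, 6.15 and 12.7 for the males, and 5.03, 15.8 and 10.9 for BALB/c, and the groups overlapped. Herc6 had 19.8, 17.7 and 18.5 CPM for BWF1 females, 11.8, 15.4 and 11.5 for the males, and 27.3, 13.8 and 12.9 for BALB/c, with all 3 BWF1 females above all BWF1 males. The log2 fold change for BWF1 females over BWF1 males was -0.81 (SE 0.536) for Oas3 (adjusted p = 0.491) and 0.55 (SE 0.358) for Herc6 (adjusted p = 0.486). For BWF1 females over BALB/c females it was -0.56 (SE 0.540) and 0.04 (SE 0.345), and for BWF1 males over BALB/c females 0.25 (SE 0.440) and -0.51 (SE 0.327).

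The other interferon-induced genes that passed the filter were Ifi27l2a, Ifi35 and Lgals3bp. Ifi27l2a had 22.1, 14.5 and 10.3 CPM for BWF1 females, 23.5, 18.5 and 18.7 for the males, and 17.2, 26.9 and 21.8 for BALB/c. Ifi35, an interferon-induced leucine zipper protein gene, had 24.3, 14.5 and 18.5 CPM for BWF1 females, 17.7, 15.4 and 17.7 for the males, and 17.2, 21.0 and 18.8 for BALB/c. Lgals3bp, which encodes a secreted galectin-binding glycoprotein, had 35.3, 22.6 and 12.3 CPM for BWF1 females, 39.2, 30.8 and 31.9 for the males, and 20.8, 27.6 and 31.7 for BALB/c. The groups overlapped for all 3 genes. The log2 fold change for BWF1 females over BWF1 males was -0.36 (SE 0.330) for Ifi27l2a, 0.15 (SE 0.311) for Ifi35 and -0.53 (SE 0.300) for Lgals3bp, the last with an adjusted p of 0.400. For BWF1 females over BALB/c females it was -0.51 (SE 0.324), -0.02 (SE 0.304) and -0.19 (SE 0.301), and for BWF1 males over BALB/c females -0.15 (SE 0.290), -0.17 (SE 0.283) and 0.33 (SE 0.275).

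The 19 members below the filter include most of the genes usually taken as interferon markers. Together they received 33, 47 and 38 counts for BWF1 females, 50, 77 and 326 for the males, and 131, 172 and 88 for BALB/c. Their summed level was 72.8, 75.8 and 78.0 CPM for BWF1 females, 98.1, 78.9 and 67.9 CPM for the males, and 94.2, 113 and 87.2 CPM for BALB/c. All 3 BWF1 females lay below all BALB/c females, and BWF1 males overlapped both. Siglec1 made up part of that gap. Without it, an alternative chosen after seeing the data, the other 18 summed to 68.4, 71.0 and 71.9 CPM for BWF1 females. The males then stood at 90.2, 70.7 and 62.0 CPM, and BALB/c at 85.5, 95.9 and 67.4 CPM. The groups overlapped, with BALB/c females 1 and 2 still above all BWF1 females and BALB/c female 3 below them. The floor that 3 counts over a group set was 1.92 CPM for BWF1 females, 0.477 for the males and 0.765 for BALB/c, so levels under these could not be told from none.

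With the minimum count lowered from 10 to 5, 11 of the 19 low members could be tested and 8 still could not. Of the 11, 0 passed an adjusted p of 0.05 in any comparison, where 1.83%, 3.35% and 3.37% of the 9520 genes did for BWF1 females over BWF1 males, BWF1 females over BALB/c females and BWF1 males over BALB/c females. An unadjusted p under 0.05 was reached by 2, 4 and 3 of them in the same order of comparisons, where 15.0%, 16.0% and 15.8% of genes reached it. Siglec1 came nearest, at an adjusted p of 0.0790 for BWF1 females over BALB/c females.

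Siglec1 encodes sialoadhesin, a receptor of metallophilic macrophages that interferon also induces on monocytes. It had 2, 3 and 3 counts for BWF1 females, 4, 8 and 28 for the males, and 12, 26 and 20 for BALB/c, or 4.41, 4.84 and 6.16 CPM for BWF1 females, 7.85, 8.20 and 5.83 for the males, and 8.62, 17.1 and 19.8 for BALB/c. All 3 BALB/c females lay above all 6 BWF1 libraries. At the lower filter the log2 fold change was -1.53 (SE 0.474) for BWF1 females and -1.10 (SE 0.387, adjusted p = 0.127) for BWF1 males, each over BALB/c females. Without BALB/c female 1, the lowest BALB/c library, Siglec1 passed the usual filter, and the females' value was -1.82 with an adjusted p of 0.0433. It passed that filter through the high levels of the BALB/c libraries kept, the group it was tested against. That call therefore adds no support. Marco, a marginal zone macrophage marker, had 0, 1 and 0 counts for BWF1 females, 0, 0 and 4 for the males, and 9, 5 and 8 for BALB/c, and the part of these macrophages in the Siglec1 values was not tested.

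The IFIT genes, whose products bind foreign RNA ends, had few counts. Ifit1 had 1, 2 and 0 counts for BWF1 females, 2, 6 and 8 for the males, and 4, 2 and 4 for BALB/c. Ifit2 had 2, 6 and 4 counts for BWF1 females, 4, 7 and 35 for the males, and 10, 10 and 9 for BALB/c. As levels these were 4.41, 9.68 and 8.21 CPM for BWF1 females, 7.85, 7.18 and 7.29 for the males, and 7.19, 6.57 and 8.92 for BALB/c. Its group means, 7.43, 7.44 and 7.56 CPM in that order, lay above the floor that 3 counts over each group set. Ifit3 had 3, 4 and 1 counts for BWF1 females, 1, 4 and 5 for the males, and 6, 7 and 1 for BALB/c. No IFIT gene separated BWF1 females from BALB/c females: their 4 levels summed to 17.3 ± 6.16 CPM for BWF1 females, 13.9 ± 3.51 for the males and 14.7 ± 0.708 for BALB/c (SD, n = 3 each). Ifit3b had 1, 3 and 1 counts for BWF1 females, 0, 0 and 2 for the males, and 1, 4 and 0 for BALB/c, all 3 BWF1 females above all BWF1 males by CPM. Ifit3b shares 44.5% of its 50-base transcript stretches with Ifit3, so counting can split or drop reads of the pair and both values are uncertain. Their promoter windows also held the same match to the letters of the response element.

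The OAS genes were sparse apart from Oas3. Oas1a had 3, 2 and 1 counts for BWF1 females, 3, 5 and 21 for the males, and 1, 2 and 1 for BALB/c. In CPM, Oas1a was higher in all 6 BWF1 libraries (2.05 to 6.62) than in BALB/c females (0.719 to 1.31), the only one of the 19 low members with that pattern, which 0 of the 18 tested members showed and 3.6% of all genes tested. Of its 50-base stretches 57.6% also occur in Oas1g, which had 1 count in all 9 libraries, so reads shared by the 2 genes may be missing from both. Oas2 had 1, 1 and 2 counts for BWF1 females, 1, 2 and 2 for the males, and 3, 4 and 3 for BALB/c. Oasl1, which restrains translation of Irf7 in mice, had 1, 1 and 1 counts for BWF1 females, 7, 2 and 34 for the males, and 10, 14 and 8 for BALB/c, and at the lower filter its log2 fold change was -1.79 (SE 0.695) for BWF1 females over BWF1 males and -2.02 (SE 0.680, adjusted p = 0.107) over BALB/c females. By CPM all BWF1 females lay below all BALB/c females (10.9% of all genes tested) and overlapped the males. Oasl2 had 2, 2 and 2 counts for BWF1 females, 4, 3 and 28 for the males, and 6, 0 and 1 for BALB/c.

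Isg15 and Usp18 form a ubiquitin-like system in which ISG15 is attached to proteins and USP18 removes it and damps the receptor. Isg15 had 1, 2 and 2 counts for BWF1 females, 3, 6 and 18 for the males, and 10, 17 and 5 for BALB/c, and its log2 fold change at the lower filter was -1.28 (SE 0.596, adjusted p = 0.286) for BWF1 females over BALB/c females. In CPM all BWF1 females lay below all BALB/c females, as they did for 10.9% of all genes tested. Usp18 had 2, 8 and 4 counts for BWF1 females, 3, 6 and 28 for the males, and 10, 12 and 7 for BALB/c, or 4.41 to 12.9 CPM for BWF1 females, 5.83 to 6.15 for the males and 6.94 to 7.89 for BALB/c, so that all 3 males lay below all 3 BALB/c libraries and the females overlapped both.

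Of the low effectors, Mx1 and Eif2ak2 reached an unadjusted p under 0.05 at the lower filter. Mx1, an antiviral GTPase, had 2, 5 and 6 counts for BWF1 females, 1, 3 and 12 for the males, and 9, 8 and 5 for BALB/c, with a log2 fold change of 1.66 (SE 0.564, adjusted p = 0.137) for BWF1 females over BWF1 males and -1.09 (SE 0.513, adjusted p = 0.298) for BWF1 males over BALB/c females. In CPM all BWF1 males were below all BWF1 females and all BALB/c females. Eif2ak2, the kinase PKR that halts translation on double-stranded RNA, had 1, 4 and 1 counts for BWF1 females, 4, 5 and 14 for the males, and 18, 16 and 7 for BALB/c. Its log2 fold change was -1.41 (SE 0.579, adjusted p = 0.211) for BWF1 females and -1.23 (SE 0.474, adjusted p = 0.174) for BWF1 males, each over BALB/c females. By CPM all BWF1 females lay below all BALB/c females (10.9% of all genes tested), and BWF1 males overlapped them.

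Ifi44, an interferon-induced gene, was a low member. It had 2, 0 and 0 counts for BWF1 females, 0, 0 and 1 for the males, and 9, 6 and 2 for BALB/c, so that BWF1 males held 1 count in all against 17 in BALB/c females, and all 3 males lay below all 3 BALB/c libraries; BWF1 females overlapped both. It was called only with no filter (log2 fold change -4.10, SE 0.999, adjusted p = 0.00264, males over BALB/c females), a fit in which the estimated quasi-likelihood spread was the same for every gene. Rtp4, a receptor-transporting protein gene, had 1, 1 and 2 counts for BWF1 females, 1, 6 and 17 for the males, and 5, 6 and 5 for BALB/c. Xaf1, a binding partner of the apoptosis inhibitor XIAP, had 4, 1 and 4 counts for BWF1 females, 8, 3 and 29 for the males, and 7, 11 and 4 for BALB/c. Phf11d, a PHD finger gene, had 0, 0 and 0 counts for BWF1 females, 0, 2 and 3 for the males, and 2, 2 and 0 for BALB/c. For Rtp4, Xaf1 and Phf11d the groups overlapped.

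Genes of the pathway outside the list were counted to show whether the wider response differed. Of 33 further interferon-stimulated genes 32 were in the table and 25 were tested. Between BWF1 females and BWF1 males 0 were called by edgeR, 0 by DESeq2 and 0 by limma-voom, with 3 at an unadjusted p under 0.05 (all genes 16.4%); Ly6e had the lowest p. Against BALB/c, BWF1 females had 2 called higher and 1 lower (all genes 3.82% in either direction), and BWF1 males had 2 higher and 0 lower (all genes 3.52%); DESeq2 gave the same counts, and limma-voom gave 3 higher and 4 lower in the males. An unadjusted p under 0.05 was reached by 6 of the 25 in BWF1 females (all genes 16.9%) and by 10 in BWF1 males (16.3%), each over BALB/c females. The median log2 fold change over the 25 was -0.04 for BWF1 females over BWF1 males, 0.04 for BWF1 females over BALB/c females and -0.06 for BWF1 males over BALB/c females.

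Ly6e and Trim14 were called higher both in BWF1 females and in BWF1 males, each over BALB/c females. Ly6e, a GPI-anchored surface protein gene that limits coronavirus entry, averaged 364 ± 48.2 CPM for BWF1 females, 505 ± 113 for the males and 180 ± 23.0 for BALB/c, a log2 fold change over BALB/c females of 1.02 (SE 0.168, adjusted p = 0.000486) for females and 1.49 (SE 0.168, adjusted p = 1.62e-06) for males. Trim14, an adaptor of RIG-I signalling at mitochondria, averaged 36.8 ± 9.50, 28.5 ± 4.27 and 12.3 ± 1.30 CPM in the same order of groups, 1.58 (SE 0.281, adjusted p = 0.00101) for females and 1.18 (SE 0.272, adjusted p = 0.0116) for males. Samd9l, an antiproliferative and antiviral gene, averaged 48.8 ± 6.07 CPM in BWF1 females and 105 ± 33.5 CPM in BALB/c females, -1.10 (SE 0.226, adjusted p = 0.00391). In BWF1 males Samd9l averaged 66.0 ± 16.4 CPM, -0.65 (SE 0.214, adjusted p = 0.0967) over BALB/c females, which did not pass. Called genes of the same response thus lay on opposite sides between BWF1 females and BALB/c females. All BALB/c libraries share a file-name tag, and no value with it as a term is given for these genes.

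Upstream of the response, Ifnb1, which encodes interferon beta, and Trex1, a DNase that clears cytosolic DNA, had 0 counts in all 9 libraries; 6689 of the 21965 genes had none. Of 28 upstream genes, 22 were tested. Between BWF1 females and BWF1 males 1 was called, where 2.19% of all genes were. Between BWF1 males and BALB/c females the same gene was called (all genes 3.52%). The called one was Mavs, the mitochondrial adaptor of RIG-I and MDA5, with 7, 7 and 11 counts for BWF1 females, 25, 33 and 245 for the males, and 35, 28 and 21 for BALB/c. It averaged 16.4 ± 5.71 CPM for BWF1 females, 44.6 ± 9.40 for the males and 21.5 ± 3.42 for BALB/c (SD, n = 3 each), -1.46 (SE 0.289, adjusted p = 0.00550) for BWF1 females over BWF1 males and 1.06 (SE 0.257, adjusted p = 0.0171) for BWF1 males over BALB/c females. DESeq2 and limma-voom called the same gene in the same directions. Macrophage markers were also highest in BWF1 males (values above), and their part in Mavs was not tested. Against BALB/c, in BWF1 females, edgeR, DESeq2 and limma-voom each called 0 of the 22, where edgeR called 3.82% of all genes. By edgeR 1 had an unadjusted p under 0.05 (all genes 16.9%). Ptpn6 had the lowest p (log2 fold change -0.31, SE 0.141, adjusted p = 0.253).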

How the data were processed

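RNA from 9 spleen samples was depleted of ribosomal RNA and sequenced, per the labels' protocols; the kit is not described as keeping strand. The deposited values are raw counts per gene made by the authors with HTSeq, as the summary lines in the deposited files show. The submitters' processing notes list STAR 2.6, FastQC 0.10.1 and the build mm10, with no role for any; the strand setting and annotation release are not given in the sources used here. Of 21965 gene IDs, 21939 were named from GENCODE M21, and the 5 HTSeq summary lines were left out.

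All 9 libraries were fitted together with edgeR 4.0.16 (R 4.3.3): genes passing a minimum count of 10 (7719; 14246 did not), TMM scaling, group means, the quasi-likelihood test (prior degrees of freedom 19.4) and Benjamini-Hochberg adjustment over all genes tested, with a threshold of 0.05. The SE is the log2 fold change divided by the root of the F statistic. DESeq2 1.42.0, limma 3.58.1 and the alternatives in the closing section were run beside it, and the fit was tested on simulated data. Figures used matplotlib 3.10.9. Full values are given for members called, for the 3 lowest p-values per comparison and direction, and for members with 100 or more counts, some with fold change and SE only, whose adjusted p was above the threshold; the remaining members are given by their counts. The 37 members and the other lists were chosen with earlier results of these data known. Intervals cover counting error only, since no molecular identifiers are named. The labels give 3 samples a group but do not say how each was obtained, so p-values measure the spread between these samples, which may be technical.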

Additional observations from a re-analysis of the deposited data

How the results depend on the processing

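Between BWF1 females and BWF1 males, 1 member (Rsad2) in place of 0 was called with library size only, library size without Lars2, limma-voom, no filter, the replicate number as a block, the file-name tag as a term, and trended dispersions by the earlier quasi-likelihood method, an alternative chosen after seeing the data. Against BALB/c, BWF1 females had 0 in place of 1 called with library size only, library size without Lars2, DESeq2, limma-voom, the replicate block (Irf7 -1.19, adjusted p = 0.0764) and the file-name tag. Between BWF1 males and BALB/c females, in place of 0, 2 (Irf7 and Rsad2) were called with library size only, limma-voom and trended dispersions, and 3 (Ifi44 too) with no filter. Leaving out 1 library gave 0 to 1, 0 to 2 and 0 to 1 calls in the same order of comparisons. The cause was not tested.

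The summed level became 1487 CPM for BWF1 females, 1380 for the males and 1521 for BALB/c with library size without Lars2, and 513, 517 and 574 CPM without Parp14. With library size only it was 507 CPM for BWF1 males and 785 CPM for BALB/c; that scaling moved the median log2 fold change of all genes by 0.16, -0.29 and -0.44. Leaving out 1 library gave 587 to 637 CPM for BWF1 females and 603 to 612 CPM for the males. For BALB/c it gave 589 to 654 CPM, the lowest without BALB/c female 2. The male values all lie above the male mean of 598 CPM, so leaving out a library also moved the scaling. They cannot be set beside the sums above, and do not show how far the male sum depends on BWF1 male 1 (669 CPM).

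Of 1122 alternative values of single members, 1089 stayed on their side of the threshold, 21 passed it newly, 12 lost it and 0 changed sign while called; 64 changed sign where neither value was called, the largest of these 0.33 in size. Libraries sharing a replicate number did not vary together (correlation of deviations -0.0912 to 0.0589 over 9 pairs, against -0.118 to 0.141 over 18 other pairs), so no pairing by number was seen. Counting error at this depth could hide a pairing, so the check cannot exclude it. Low depth in BWF1 females limits every comparison that includes them.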
